A study of Mus musculus with 6 samples.

Results

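The 9 genes described here encode the strychnine-sensitive glycine receptor, its anchor at the synapse and the carriers that move glycine into and out of cells. They were found by gene name in the deposited transcript assembly, each had a locus, and they make up 9 of its 34632 loci. One name, *Glra4*, stood on more than 1 locus, and the locus with the most fragments was used. Glycine receptors are chloride channels built of α subunits (*Glra1* to *Glra4*) and a β subunit (*Glrb*), and gephyrin (*Gphn*) holds them in the postsynaptic membrane by binding the β subunit. Glycine is the main fast inhibitory transmitter of brainstem and spinal cord. The carrier GlyT2 (*Slc6a5*) recovers it into the terminals of glycinergic neurons, GlyT1 (*Slc6a9*) clears it mostly into glia, and VIAAT (*Slc32a1*) loads both glycine and GABA into synaptic vesicles.

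Total RNA of whole brainstem, depleted of ribosomal RNA, was sequenced in stranded libraries from mice at postnatal day 21, in 3 *Hoxa5* cKO and 3 *Hoxa5* control libraries, each made from a pool of 3 brainstems, 9 animals per genotype. The cKO pups were Hoxa5 flox/flox;CMV-CreERT2+/- and the control littermates Hoxa5 flox/flox;CMV-CreERT2-/-, so both genotypes carried the floxed alleles and only the cKO pups carried the recombinase. All pups received tamoxifen on postnatal days 1 to 4. The Cre is driven by the broadly active CMV promoter and is not restricted to a cell type, and the animals were on a mixed background of 129/Sv, C57BL/6 and DBA/2. The comparison asks whether the glycinergic genes were expressed at other levels once this homeodomain transcription factor had been inactivated after birth.

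The libraries held 12034613 to 13202707 fragments assigned to loci, and 21854 loci passed the filter on low counts. The locus that joins *Hoxa5* with *Hoxa6* and *2700086A05Rik* held 279, 57 and 63 fragments in the libraries labelled cKO and 202, 337 and 77 in those labelled control. Labelled cKO replicate 1 was thus above 2 of the 3 controls and labelled control replicate 3 lay near the other cKO libraries (log2 fold change -0.62, SE 0.483, adjusted p = 0.893, edgeR). As the locus joins several names, its fragments, called *Hoxa5* counts below, need not come from the floxed gene alone. For this treatment the paper reports a severe reduction of *Hoxa5* transcripts in dissected brainstem subregions by RT-qPCR, and of HOXA5-positive cells. Because of the counts here the genotypes are given below as labelled. The main comparison is also given without 2 libraries, labelled cKO replicate 1 and labelled control replicate 3. They were chosen by their *Hoxa5* counts, so the *Hoxa5* difference among the other libraries, -2.23 on the log2 scale, is fixed by that choice and has no test. The other 14 tested *Hox* loci of groups 4 to 9 averaged 2.46, 1.86 and 1.97 log2 CPM in labelled cKO. In labelled control they averaged 2.45, 2.36 and 2.06, so the libraries low in *Hoxa5* were also the lowest in this mean. With this mean as a covariate (the *Hox* covariate), the *Hoxa5* log2 fold change was -0.07 (adjusted p = 0.97, edgeR). The part of this mean in the *Hoxa5* counts was not tested. Summed Y-linked genes were at 0.25 CPM (counts scaled to library size) in labelled cKO replicate 1 and at 84.4 to 131 CPM in the other libraries. Genes taken as cerebellar markers moved with the label: 5 of 7 granule cell genes and 6 of 6 Purkinje cell genes were called lower, against 0.503% of all tested loci. The granule cell genes summed to 113 to 143 CPM in cKO and 298 to 575 CPM in control. The Purkinje cell genes summed to 259 to 321 CPM in cKO and 493 to 766 CPM in control. The largest part of the latter sum was *Itpr1*, at 170 to 217 CPM in cKO and 328 to 501 CPM in control. The paper also detected *Itpr1* and *Calb1*, another of these genes, in nuclei of the medulla, so the sum does not measure Purkinje cells alone. The 2 genes taken as markers of cerebellar Golgi cells, which are themselves partly glycinergic, summed to 214 to 228 CPM in cKO and 212 to 217 CPM in control. Nearly all of this sum was *Lgi2* (203 to 218 CPM over the libraries), with *Grm2* at 7 to 9.5 CPM. Whether the *Lgi2* fragments came from Golgi cells was not tested, so the sum does not show the level of these cells. Brainstem nucleus markers were present (167 to 211 CPM in cKO, 152 to 181 CPM in control), and forebrain markers were near 0, at most 4.82 CPM. The 8 tested brainstem nucleus markers had a median log2 fold change of 0.15, against 0 over all tested loci. Of these 8, 0 had a value below 0 and 0 were called, against 0.503% of all tested loci called lower and 0.0275% higher. The part of these markers in the values below was not tested.

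The β subunit gene was the most abundant of the 9 on the length-corrected scale of fragments per kilobase of transcript scaled to library size (FPKM). Over all 6 libraries *Glrb* averaged 122 ± 5.06 FPKM (SD, n = 6), above 98.8% of all loci. It was followed by *Glra1* at 56.0 ± 5.20, *Slc6a9* at 53.6 ± 2.90 and *Slc6a5* at 44.1 ± 5.09 FPKM, and then by *Slc32a1* at 33.4 ± 1.55 and *Gphn* at 29.4 ± 1.82 FPKM. The other α subunits were far lower, with *Glra3* at 10.3 ± 1.77, *Glra2* at 7.53 ± 0.312 and *Glra4* at 0.948 ± 0.284 FPKM. *Glra1* and *Slc6a9* could not be ordered, since *Glra1* was the higher in only 3 of the 6 libraries. *Slc6a9* exceeded *Slc6a5* in 6 of 6 libraries although their ranges overlapped, and every other pair of neighbours in this order kept apart in all 6 libraries without overlap. *Glrb* was thus 2.17 times as abundant as *Glra1*, and *Glra1* was 5.43 times as abundant as *Glra3* and 7.43 times as abundant as *Glra2*. These ratios depend on the assembled transcript lengths, and the *Glra1* locus reached 9280 bases beyond the RefSeq 3′ end of the gene.

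**Figure D1:**
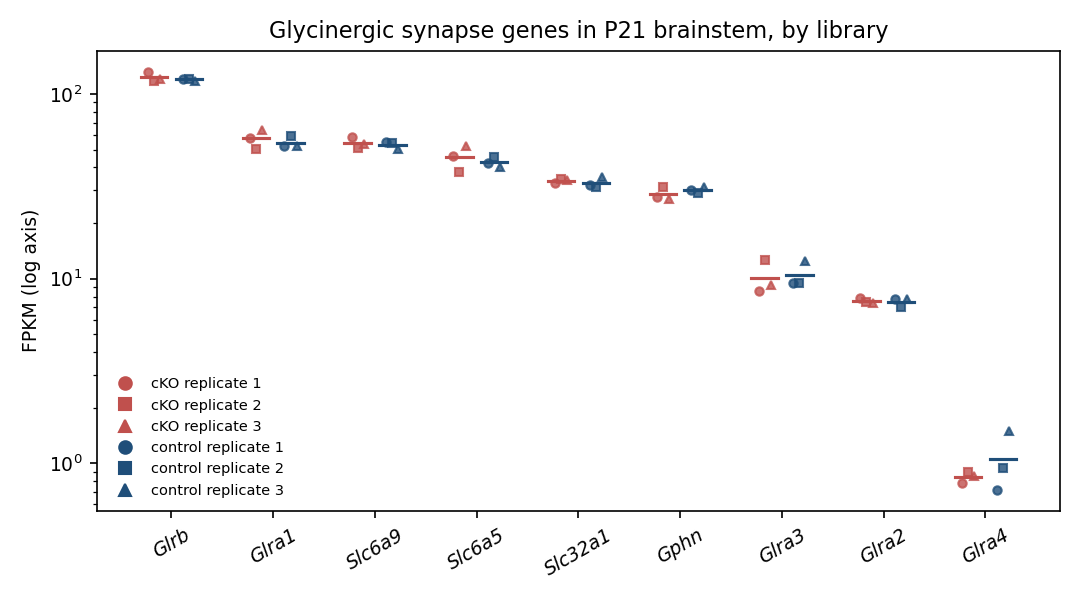
FPKM of each of the 9 genes in the 6 libraries, cKO left of control, on a log axis, each point being 1 pool of 3 brainstems and each line the mean of 3 pools. *Glrb* lies highest at 118 to 132 FPKM and *Glra4* lowest at 0.717 to 1.5 FPKM, and for every gene the points of the 2 genotypes overlap.

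None of the 9 genes was called different between *Hoxa5* cKO and *Hoxa5* control. All 9 passed the filter on low counts, and with edgeR's quasi-likelihood test 0 were called lower and 0 higher at an adjusted p under 0.05, where 0.503% of all tested loci were called lower and 0.0275% higher. By the unadjusted p, too, 0 of 9 passed 0.05 (4.03% of loci did so downwards and 2.91% upwards). DESeq2 called 0 of 9, where it called 113 of 21854 loci lower and 4 higher. With limma on log2(FPKM + 1), 0 of the 8 that passed its filter were called. It also called 0 of all 19282 loci it tested, so its 0 of 8 says nothing about the members. The unadjusted count depended on single libraries: without cKO replicate 2 it was 3 of 9, led by *Slc6a5* (0.00362, edgeR adjusted p = 0.275), and without control replicate 2 it was 1 of 9 (*Slc6a5*, 0.0262). It was also 1 of 9 without the filter on low counts (*Slc6a5*, 0.0471) and with the *Hox* covariate (*Glrb*, 0.0289). Without the 2 libraries whose *Hoxa5* counts went against the label, edgeR again called 0 of 9, and *Glra3*, the only one with an unadjusted p under 0.05, was at a log2 fold change of 0.20 (adjusted p = 0.449). The share of all loci with an unadjusted p under 0.05 was computed for the main setting only. The unadjusted counts of the other settings thus have no background and are not read as a result about the members. The 2 genotypes overlapped for each of the 9 genes. Over all tested loci, all cKO libraries lay below all controls at 6.54% and above them at 5.61%, so overlap was the common case and does not set the 9 apart. The median log2 fold change of the 9 was 0.04 and their median absolute log2 fold change 0.06, against 0 and 0.09 over all tested loci. In bulk tissue fewer cells of a type and less RNA per cell cannot be told apart.

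*Glra1*, the α subunit of the adult receptor and the gene altered in most hereditary startle disease, spans chr11:55504959-55608647 (mm10, minus strand) with 9 exon blocks. It held 9016, 8532 and 10330 fragments in cKO and 8188, 9213 and 8878 in control, or 753, 655 and 816 CPM against 671, 750 and 671 CPM. The highest and the lowest library both carried the cKO label, so the control values lay within the cKO range. The means were 741 ± 81.1 CPM in cKO and 697 ± 45.9 CPM in control (SD, n = 3 each). This gave a log2 fold change of 0.09 (SE 0.065, 95% interval -0.05 to 0.22, edgeR adjusted p = 0.884). The interval allows between 0.966 and 1.17 times the control level.

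*Glra3* (chr8:55940261-56130262, plus strand), an α subunit that also occurs in spinal pain circuits, was the next α gene by level. Its values were 47.0, 60.1 and 48.6 CPM in cKO and 46.9, 47.9 and 54.6 CPM in control, with 1 library of each genotype above the rest. The log2 fold change was 0.06 (SE 0.086, 95% interval -0.12 to 0.24, edgeR adjusted p = 0.946).

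*Glra2* (chrX:165129017-165327600, minus strand), the α subunit that prevails before birth, was almost level across the libraries. It held 262, 272 and 252 fragments in cKO and 261, 241 and 290 in control, which is 20.9 ± 0.986 CPM against 21.0 ± 1.2 CPM (SD, n = 3 each). The log2 fold change was -0.01 (SE 0.085, 95% interval -0.19 to 0.17, edgeR adjusted p = 0.993). Its coefficient of variation over the 6 libraries was 4.69%, where the 11244 loci of at least 10 CPM had a median of 5.87%. *Glra2* and *Glra4* are X-linked, and labelled cKO replicate 1, the library with almost no Y-linked reads, held neither the highest nor the lowest value of *Glra4* and shared the highest of *Glra2* with a control.

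*Glra4* (chrX:136757674-136779721, minus strand), an α subunit gene that has lost its function in humans, was detected with few fragments. The counts were 15, 19 and 18 in cKO and 14, 18 and 34 in control, so that a single control library stood above the other 5. At 1.38 ± 0.11 CPM in cKO and 1.73 ± 0.746 CPM in control (SD, n = 3 each), the log2 fold change was -0.34 (SE 0.321, 95% interval -1.01 to 0.34, edgeR adjusted p = 0.909), and it was 0.07 without control replicate 3. A change within this interval was not detectable at this depth. The locus *BC065397* on the opposite strand, with 58 to 68 fragments per library, spans the whole of *Glra4*, and although the libraries were stranded, the strand option of the counting is not given in the sources used here, so the values of *Glra4* are uncertain in this respect.

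*Glrb* (chr3:80843604-80913642, minus strand), the β subunit that links the receptor to its anchor, was the gene with the narrowest interval together with *Slc6a9*. It had 342, 296 and 300 CPM in cKO and 303, 308 and 296 CPM in control, so only labelled cKO replicate 1 stood above the rest. The log2 fold change was 0.05 (SE 0.053, 95% interval -0.06 to 0.16, edgeR adjusted p = 0.927). *Gphn* (chr12:78226220-78684769, plus strand), which encodes gephyrin and is spliced into many forms, had 10 assembled transcripts and 26 exon blocks. It was at 93.6, 104 and 90.6 CPM in cKO and at 99.8, 98.0 and 105 CPM in control, with 2 cKO libraries below all controls and the other among the highest. The log2 fold change was -0.07 (SE 0.059, 95% interval -0.19 to 0.05, edgeR adjusted p = 0.9), and *Gphn* was the only member with a value below 0 under all 16 alternative settings (-0.13 to -0.02), none of which made a call.

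*Slc6a5*, the GlyT2 gene that marks glycinergic neurons, had the smallest unadjusted p of the 9 genes, 0.123 with edgeR. Its locus (chr7:49909476-49963861, plus strand, 16 exon blocks) held 2870, 2611 and 3427 fragments in cKO and 2523, 2930 and 2671 in control, which is 240, 200 and 271 CPM against 207, 239 and 202 CPM. The cKO libraries enclosed the control values on both sides. The means were 237 ± 35.2 CPM in cKO and 216 ± 20 CPM in control (SD, n = 3 each), with a log2 fold change of 0.13 (SE 0.083, 95% interval -0.04 to 0.31, edgeR adjusted p = 0.848), or 0.972 to 1.24 times control. Leaving out labelled cKO replicate 2 moved the log2 fold change to 0.25 (adjusted p = 0.275, the lowest of the 16 alternative settings, in which it reached 1 at most).

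The other carriers varied less. *Slc6a9* (chr4:117834847-117869305, plus strand) was at 167, 150 and 155 CPM in cKO and at 159, 155 and 147 CPM in control, overlapping throughout (log2 fold change 0.04, SE 0.053, 95% interval -0.07 to 0.15, edgeR adjusted p = 0.946). *Slc32a1* (chr2:158610758-158615747, plus strand), a gene with 2 exon blocks, was at 68.2, 75.3 and 73.6 CPM in cKO and at 69.1, 67.1 and 76.8 CPM in control. Its log2 fold change was 0.03 (SE 0.063, 95% interval -0.11 to 0.16, edgeR adjusted p = 0.971).

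**Figure D2:**
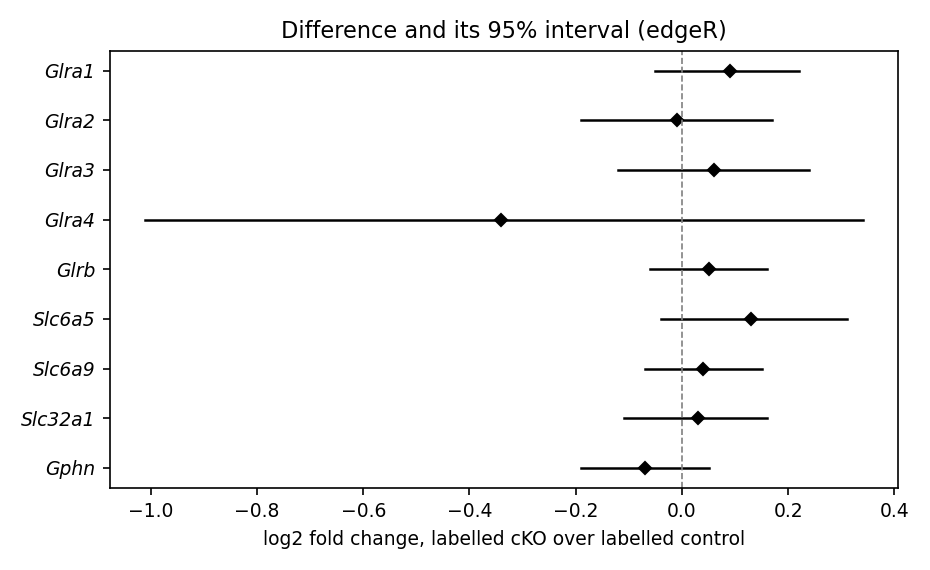
Log2 fold change of cKO over control for the 9 genes (points) with the 95% interval from edgeR (bars). Every interval includes 0, and the intervals run from -0.06 to 0.16 for *Glrb*, one of the narrowest, to -1.01 to 0.34 for *Glra4*.

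HOX proteins bind DNA together with PBX partners at sites such as TGATNNAT. Promoter windows were searched for these letters on both strands, from 250 bases before to 50 bases after each RefSeq start. 8 of the 9 genes had a window in RefSeq (build GRCm38.p6), 11 windows in all, while *Glra1* had none and was not searched. The letters occurred in 2 of the 11, those of the carriers *Slc6a5* and *Slc6a9*, and in 8.85% of all 32851 promoter windows. The plain homeodomain core TAATTA occurred in 0 of the 11 and in 5.29% of all windows. The windows with a match are shown because they belong to the plasma membrane glycine carriers, in lower case and 5′ to 3′, with the matched letters in capitals.
Slc6a5 (chr7:49910049-49910348, plus strand): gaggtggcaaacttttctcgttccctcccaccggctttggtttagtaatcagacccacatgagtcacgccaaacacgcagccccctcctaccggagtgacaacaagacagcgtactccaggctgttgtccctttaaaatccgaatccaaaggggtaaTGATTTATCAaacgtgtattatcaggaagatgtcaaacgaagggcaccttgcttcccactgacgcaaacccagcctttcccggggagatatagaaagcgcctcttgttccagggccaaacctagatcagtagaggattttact
Slc6a9 (chr4:117835008-117835307, plus strand): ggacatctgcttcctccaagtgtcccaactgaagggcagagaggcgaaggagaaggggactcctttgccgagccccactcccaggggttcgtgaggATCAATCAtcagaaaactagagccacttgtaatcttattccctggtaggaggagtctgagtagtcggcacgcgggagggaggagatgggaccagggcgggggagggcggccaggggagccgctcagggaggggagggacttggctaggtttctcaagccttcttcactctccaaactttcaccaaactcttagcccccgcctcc
In *Slc6a5* the capitals hold 2 overlapping matches, a forward one that starts at position -93 from the start its window was set on and one on the other strand. The RefSeq span of *Slc6a5* begins upstream of this window, at 49906984, so the window shown lies inside the gene's span and not at its 5′ end. In *Slc6a9* there was 1 match, on the other strand, starting at position -154. Neither gene was called in the comparison above, and a match of letters is a description of the sequence.

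Among the α subunits, *Glra1* made up about the same share of transcripts in both genotypes. It accounted for 77.1%, 70.8% and 78.6% of the summed α subunit FPKM in cKO and for 74.4%, 77.2% and 70.6% in control, so the groups overlapped almost completely. The mean shares were 75.5 ± 4.14% in cKO and 74.1 ± 3.27% in control for *Glra1*, 13.4 ± 3.58% and 14.3 ± 2.34% for *Glra3*, 9.99 ± 0.82% and 10.2 ± 0.946% for *Glra2*, and 1.11 ± 0.121% and 1.43 ± 0.53% for *Glra4* (SD, n = 3 each). In each case the difference between the means was smaller than the larger of the 2 SDs. The *Glra1* share was low in 1 library of each genotype, cKO replicate 2 and control replicate 3, and in both the *Glra3* share was the highest of its genotype, at 17.6% and 16.9%. The summed α subunit FPKM stood at 0.57, 0.605 and 0.681 of *Glrb* in cKO and at 0.58, 0.63 and 0.629 in control, so *Glrb* was the higher by FPKM in all 6 libraries. By fragments per kilobase of exon the mean ratio was 0.718 in cKO and 0.703 in control, and the mean *Glra1* share 80.7% and 80.1%. Both measures depend on the assembled length. In raw fragments *Glra1* alone (8188 to 10330) was above *Glrb* (3698 to 4097). Transcript shares do not measure assembled receptors.

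**Figure D3:**
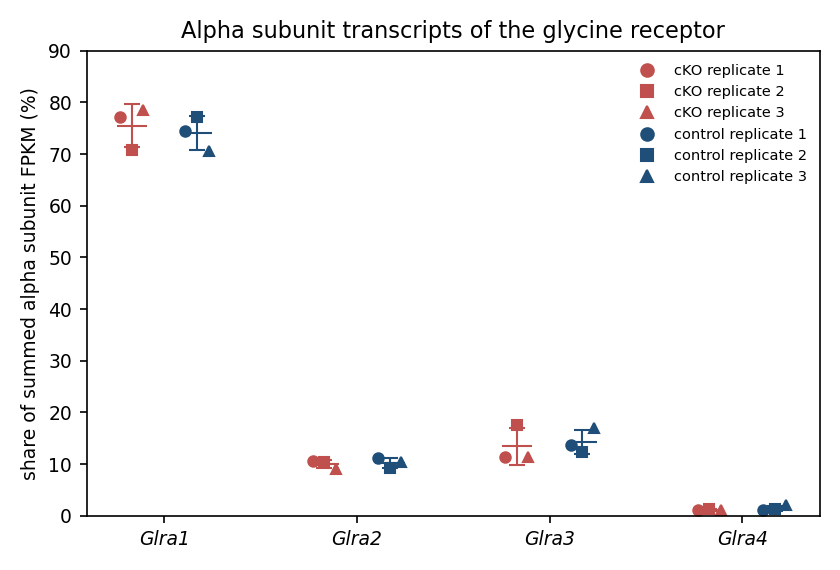
Share of each α subunit gene in the summed α subunit FPKM (percent), with cKO left of control. Points are libraries, and lines give the mean and SD of 3 libraries. The *Glra1* points lie at 70.8% to 78.6% in cKO and 70.6% to 77.2% in control, and those of the other α genes at 17.6% or less.

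*Slc6a5* and *Glra1* spanned a wider range among the libraries of either genotype than the difference between the genotype means, and they did so together. Log2 CPM of *Slc6a5* and *Glra1* followed each other over the 6 libraries with Pearson r = 0.997 (exact permutation p = 0.00278, Benjamini-Hochberg adjusted over 66 relations 0.0917) and Spearman rho = 0.943 (exact p = 0.0167, adjusted 0.275). Without cKO replicates 2 and 3, the libraries farthest from the median of *Glra1*, r was 0.994. The ratio of *Glra1* to *Slc6a5* fragments was 3.14, 3.27 and 3.01 in cKO and 3.25, 3.14 and 3.32 in control, a coefficient of variation of 3.5%, while *Slc6a5* itself varied by 12.4% and *Glra1* by 8.84%. The median locus of at least 10 CPM varied by 5.87% and the 90th percentile was 11.1%, so *Slc6a5* was beyond and *Glra1* below that percentile. Both were high in cKO replicate 1, cKO replicate 3 and control replicate 2 and low in the other 3 libraries.

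Of 10045 loci with a single name and a mean of at least 10 CPM, *Glra1* was the one most alike to *Slc6a5*, and *Slc6a5* the one most alike to *Glra1*. Next to *Slc6a5* came *Syt2*, a calcium sensor of fast transmitter release (r = 0.986), *Pus7*, a pseudouridine synthase (0.985), *Adra1a*, an adrenergic receptor (0.983), and *Glrx*, a glutaredoxin (0.98). Next to *Glra1* came *Pus7* (0.98), *Lrrcc1* (0.98), *Syt2* (0.977) and *D730040F13Rik* (0.977). These values rest on 6 libraries and are descriptive.

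*Gphn* moved the other way across the same libraries. Its r was -0.944 with *Slc6a5* (exact permutation p = 0.00278, adjusted 0.0917, rho = -0.943) and -0.93 with *Glra1* (exact permutation p = 0.00833, adjusted 0.11, rho = -0.829), or -0.856 and -0.814 without the 2 farthest libraries. The ratio of *Slc6a5* to *Gphn* fragments accordingly ran over 2.56, 1.92 and 2.99 in cKO and 2.07, 2.44 and 1.92 in control. *Glrb* followed *Slc6a9* instead (r = 0.884, exact permutation p = 0.00694, adjusted 0.11, rho = 0.943), and r was 0.966 without the 2 farthest libraries. None of the 66 relations passed an adjusted p of 0.05 by Pearson or by Spearman, and the libraries were too few to repeat them within a genotype. The labels name no batch.

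**Figure D4:**
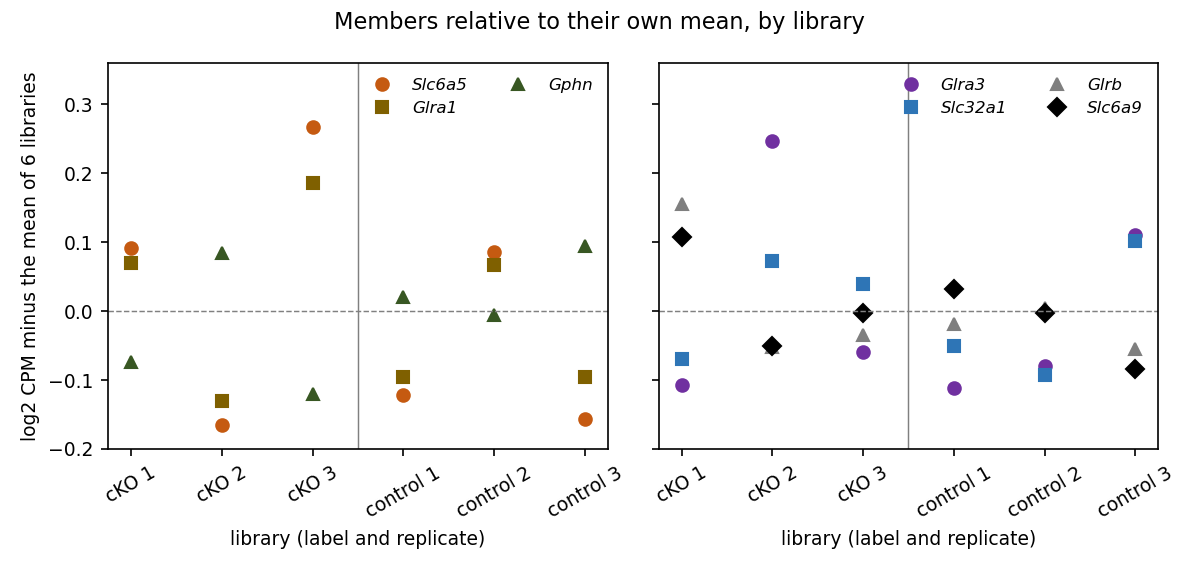
Log2 CPM of 7 of the genes in each library as the difference from the mean of the 6 libraries, cKO left of control, with *Slc6a5*, *Glra1* and *Gphn* in the left panel and *Glra3*, *Slc32a1*, *Glrb* and *Slc6a9* in the right. *Slc6a5* and *Glra1* are above 0 in cKO replicates 1 and 3 and control replicate 2 and below 0 in the other libraries, in which *Gphn* is above 0.

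The vesicular carrier *Slc32a1*, which GABAergic neurons share, had its highest r with the GABA-synthesising enzyme gene *Gad2*, though this relation did not pass either. The r was 0.906 (exact permutation p = 0.0819, adjusted 0.329, rho = 0.657), and 0.965 without the 2 farthest libraries. With *Gad1*, the other such gene, the r of *Slc32a1* was 0.639 (exact permutation p = 0.117, adjusted 0.359, rho = 0.829). With *Slc6a5* the r of *Slc32a1* was -0.357 (exact permutation p = 0.49, adjusted 0.694, rho = -0.543). The ratio of *Slc6a5* to *Slc32a1* fragments was 3.51, 2.66 and 3.68 in cKO and 2.99, 3.56 and 2.63 in control, a coefficient of variation of 14.8%. The mean log2 CPM of the 14 *Hox* loci of groups 4 to 9, without *Hoxa5*, was 2.46, 1.86 and 1.97 in cKO and 2.45, 2.36 and 2.06 in control. With this mean r was -0.877 for *Slc32a1* (exact permutation p = 0.0806, adjusted 0.329, rho = -0.657) and -0.804 for *Glra3* (exact permutation p = 0.0264, adjusted 0.249, rho = -0.886). Without the 2 farthest libraries these were -0.993 and -0.911. *Gad2* had an r of -0.985 with the same *Hox* mean (exact permutation p = 0.00833, adjusted 0.11, rho = -0.829). In the other direction r was 0.744 for *Slc6a9* and 0.672 for *Glrb* (exact permutation p of 0.0847 and 0.0694, adjusted 0.329 for both). For *Slc6a5* r was 0.105 and for *Glra1* 0.12, with exact permutation p of 0.868 and 0.847. *Hox* genes are expressed in nested domains along the hindbrain and spinal cord.

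Genes that act around the 9 were compared next, in 6 lists of 51 genes that were all found in the assembly, 48 of them above the filter on low counts. With edgeR 0 of the 48 were called lower and 0 higher, against 0.503% and 0.0275% of all loci, and DESeq2 also called 0. With limma on log2(FPKM + 1) 0 were called too, but it called 0 of all loci, so this says nothing about the lists. Before adjustment 5 passed 0.05 with edgeR, of which 3 had a lower and 2 a higher mean in cKO. Of all tested loci 4.03% passed downwards and 2.91% upwards. Of 9 genes for the synthesis and cleavage of glycine, the median log2 fold change was -0.03, and *Gldc*, the decarboxylase of the glycine cleavage system, had the smallest p (5.86 CPM in cKO, 7.28 CPM in control, log2 fold change -0.31, SE 0.145, adjusted p = 0.704, edgeR). *Shmt2*, the mitochondrial enzyme that makes glycine from serine, was next at -0.18 (SE 0.097, adjusted p = 0.791, edgeR).

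Among 7 tested carriers that can move glycine besides the members, *Slc38a5*, a system N transporter for glutamine, serine and glycine, came closest to a call. It held 44, 48 and 36 fragments in cKO and 74, 65 and 75 in control, without overlap, which is 3.40 ± 0.482 CPM against 5.67 ± 0.384 CPM (SD, n = 3 each). The log2 fold change was -0.74 (SE 0.169, edgeR adjusted p = 0.065). It was called only without the filter on low counts (adjusted p = 0.0307), and the adjusted p reached 0.421 in the other alternatives. The next smallest p in the list was that of *Slc6a20a*, a carrier of proline and glycine, with 27.0, 21.8 and 24.2 CPM in cKO and 21.1, 24.8 and 21.7 CPM in control, overlapping (log2 fold change 0.11, SE 0.095, adjusted p = 0.9, edgeR). *Slc38a5* was singled out by the study on these libraries, so the list is not independent of it. The cerebellar granule and Purkinje markers fell in the same libraries, and their part in the *Slc38a5* value was not tested.

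The 11 genes of the gephyrin and inhibitory postsynaptic scaffold had a median log2 fold change of 0.04. *Mdga1*, which binds neuroligins, averaged 33.5 CPM in cKO and 29.3 CPM in control (0.20, SE 0.078, adjusted p = 0.603, edgeR), and *Iqsec3*, a gephyrin partner at inhibitory synapses, stood at 0.07 (SE 0.049, adjusted p = 0.865). Gephyrin also makes the molybdenum cofactor, and the 7 tested genes of that path had a median of 0.01. *Xdh*, the cofactor-dependent xanthine dehydrogenase, held 127, 52 and 103 fragments in cKO and 59, 60 and 50 in control, so 2 cKO libraries were high and the third lay within the controls. Its log2 fold change was 0.74 (SE 0.253, edgeR adjusted p = 0.420), and it was called without cKO replicate 2 (1.06, adjusted p = 0.0116) and with the *Hox* mean as a covariate (1.01, adjusted p = 0.0311), while the adjusted p reached 1 in other alternatives. *Mocs2*, a cofactor synthesis gene, was at 0.09 (SE 0.072, adjusted p = 0.899, edgeR).

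The 5 genes of GABA synthesis and chloride balance had a median log2 fold change of 0. *Gad2* was at 0.07 (adjusted p = 0.886, edgeR), and *Gad1*, the other glutamate decarboxylase, averaged 183 ± 13.4 CPM in cKO and 194 ± 20.2 CPM in control (-0.08, adjusted p = 0.897, SD, n = 3 each, edgeR). The 9 tested transcription factor genes of inhibitory neurons had a median of 0.13. *Lhx1*, a LIM homeodomain factor, averaged 5.94 CPM in cKO and 7.58 CPM in control (-0.35, SE 0.134, adjusted p = 0.564, edgeR), and *Gata2*, a zinc finger factor of GABAergic neurons in the brainstem, stood at 0.28 (SE 0.133, adjusted p = 0.725). Of the genes named from the 6 lists, *Slc38a5* and *Xdh* were the only ones called under any of the alternatives.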

How the data were processed

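The deposited table held, for each locus and library, the raw fragment count and the FPKM value that the authors obtained with Cuffdiff (Cufflinks 2.2.0), after base calling with CASAVA 1.6 and alignment to mm10 with TopHat2 2.0.9. Loci and positions were taken from the merged assembly the authors deposited, whose start and end coordinates (unit: other) are 1-based. FPKM served for levels and shares, and counts for tests. 2 scaled columns were not used.

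Counts were tested with edgeR 4.0.16 (TMM factors, filterByExpr, quasi-likelihood test) in R 4.3.3 over all 21854 tested loci, with Benjamini-Hochberg adjustment and a threshold of 0.05. The SE of edgeR was taken as the absolute log2 fold change over the square root of the F statistic, and the 95% intervals were set from it. Log2 CPM values used a prior count of 2. Alternatives were DESeq2 1.42.0, limma 3.58.1 on log2(FPKM + 1) and log2(FPKM + 0.1) for loci of at least 1 FPKM in 3 libraries, other scalings and filters, a replicate block, a *Hox* covariate and each library left out. The tests were checked on simulated data. Correlations used exact permutation of 720 arrangements (scipy 1.17.1).

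All 9 members were named. In each wider list the genes with an adjusted p under 0.05 and the 2 with the smallest unadjusted p were named, and for *Slc6a5* and *Glra1* the 5 loci with the highest r. The members and lists were chosen with earlier results of these data known. *Marc1* and *Marc2* were found under older names. Replicates are pools of 3 animals, so p-values measure the spread between pools. An exact test of 3 against 3 cannot go below 0.1, so none was run on single genes.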

Additional observations from a re-analysis of the deposited data

Results flagged for a closer look

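A second locus carrying the name *Glra4* lies on the opposite strand within the gene (chrX:136764004-136765107, mm10, plus strand) and entered no comparison. It held 7, 11 and 7 fragments in cKO and 6, 13 and 6 in control, so the lowest library had 6 and the highest 13, all above the limit of 3 fragments that a count of 0 allows. The locus *BC065397* lies on the same plus strand and spans this second locus (chrX:136741867-136820461). Whether these fragments belong to *BC065397* was not tested, so they are not read as a signal of *Glra4*.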

How the results depend on the processing

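In the 16 alternatives, 1 of which was chosen after seeing the data, 0 members were called. *Glra4* did not pass the filters of limma and of at least 50 fragments in 3 libraries, so 8 members were tested there and 9 elsewhere. *Glra1* (0.01 to 0.17), *Slc6a5* (0.03 to 0.25) and *Gphn* (-0.13 to -0.02) kept their sign in all 16. The others changed sign at least once. *Glra2* was 0.0114 and 0.0129 with limma (pseudocount 1 and 0.1), 0.0043 with upper-quartile factors and 0.0028 with the *Hox* covariate, *Glra3* was -0.0565, -0.0621 and, with the covariate, -0.0411, and *Slc32a1* was -0.0325 with the covariate. Leaving out 1 library gave -0.0533 to 0.025 for *Glra2*, with 0.025 without cKO 3, 0.0051 without control 1 and 0.0222 without control 3. It gave -0.057 for *Glra3* without cKO 2. The range was -0.5554 to 0.0739 (without control 3) for *Glra4*, -0.0212 (without cKO 1) to 0.0905 for *Glrb*, -0.0088 (without cKO 1) to 0.0751 for *Slc6a9*, and -0.0124 (without control 2) to 0.0841 for *Slc32a1*. Without cKO 1 and control 3 together, *Glra4* was 0.139, *Glrb* -0.0362 and *Slc6a9* -0.041. All these values lay inside the intervals of the members, and the cause was not tested.

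Over all loci, 110 were called lower and 6 higher. The counts were 0 and 0 with limma at pseudocount 1, 1 and 0 at pseudocount 0.1, and 194 and 27 without the filter on low counts, where more loci were tested. The higher count was 1 with at least 50 fragments in 3 libraries, 14 with the *Hox* covariate and 21 without the 2 libraries whose *Hoxa5* counts go against the label. Leaving out 1 library gave 42 to 126 lower and 0 to 15 higher. In the wider lists 1 gene was called lower without the filter, 1 higher with the covariate, and 0 to 1 higher with 1 library left out. The *Hoxa5* locus ran from -1.8152 (without cKO 1, adjusted p = 0.0318, edgeR) to -0.0468 with 1 library left out. It was -2.23 without both libraries and -0.0739 with the *Hox* covariate.

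Libraries with the same replicate number did not deviate together (correlations 0.062, -0.223 and 0.048). A replicate block left 0 members, 122 loci lower and 8 higher, with 0.129 for *Slc6a5* and -0.0072 for *Glra2*. Depth limited *Glra4* most, with 14 to 34 fragments per library.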
